A study of Scophthalmus maximus with 8 samples.

Results

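A set of 236 turbot genes, of 21263 listed in the deposited tables, was chosen by its rise at every sampled stage, from the phylotypic embryo through the pre-metamorphic larva and the climax of metamorphosis to the post-metamorphic juvenile. The members were chosen by their stage means of normalized counts, which are raw counts divided by median-of-ratios size factors and averaged over the 2 libraries of a stage. A member had a mean of at least 100 at 37 dph, rose at least 2 times from 3 dpf to 15 dph, at least 1.6 times from 15 to 23 dph and at least 1.6 but under 4 times from 23 to 37 dph, and reached 20000 at no stage. The rise itself is therefore how the genes were found and is described here. Counts of members called by edgeR are set beside the share over all genes where one is given, and nothing is read from them. In all, 13969 genes had a mean of at least 100 at 37 dph, and 2509 of these were higher at each stage than at the one before. The first step of 2 left 1424 genes, the second step left 485 and the last step left 348. The limit of 4 on the third step left 254, and the limit of 20000 left the 236.

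The study followed *Scophthalmus maximus*, the turbot, with 2 fish sequenced at each of 4 stages, described as independent biological replicates. No strain, treatment or genetic change was given for any stage. Embryos at 3 dpf (days post fertilization) were taken whole. At 15, 23 and 37 dph (days post hatching) the hind part of the body, behind the cloaca, was discarded, so the first step compares whole animals with partial bodies and these cannot be told apart from stage. The counts on genes ranged from 19077018 to 24633023 per library. The label of replicate 2 of 3 dpf gives days post fertilization while the name of its deposited table gives days post hatching, so the main values of the first step are also given without it. Without that library 223 genes met the rule, 222 of them among the 236.

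Turbot hatch upright, with an eye on each side. During metamorphosis an eye crosses the head, the body comes to lie on its flank, and organs such as the stomach and the muscle mature from their larval to their adult form. The process is under the control of thyroid hormone, as it is in the tadpole. A gene whose counts rise through every stage may rise because more cells of its tissue are present or because each cell holds more of its RNA, and in RNA from whole bodies these cannot be told apart. The tables give Ensembl identifiers without names, and no identifier matched the gene table used here, so no member could be given a name, a function, a protein or a position. The labelled stages could not be checked against marker genes for the same reason. Members other than 2 fixed by rule are therefore given by their rank in counts at 37 dph. Counts were not divided by gene length, so a rank orders reads and not transcripts.

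The members took a growing part of each library. They held 0.0691% and 0.0647% of the gene counts in the libraries of 3 dpf, 0.554% and 0.511% in those of 15 dph, 0.923% and 0.850% in those of 23 dph, and 1.84% and 1.62% in those of 37 dph, with replicate 1 first in each pair. Both libraries of every stage lay above both of the stage before, and replicate 1 had the larger share in all 4 pairs. The median member had a mean of 11.5 normalized counts in the embryo, 106 before metamorphosis, 267 at climax and 633 in the juvenile. Relative to its own level in the juvenile, the median member stood at 2.19% in the embryo, 20.2% in the pre-metamorphic larva and 43.0% at climax. Levels at 37 dph ran from 103 to 19439 normalized counts, with 150 members under 1000 and 13 at 10000 or more. The most abundant member held 4.24% of the members' summed normalized counts at 37 dph, and the 10 most abundant held 33.9%. The limit of 20000 on the stage means alone kept out 18 genes. The rule thus capped the share of any single member in advance, and nothing is read from its size.

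**Figure D1:**
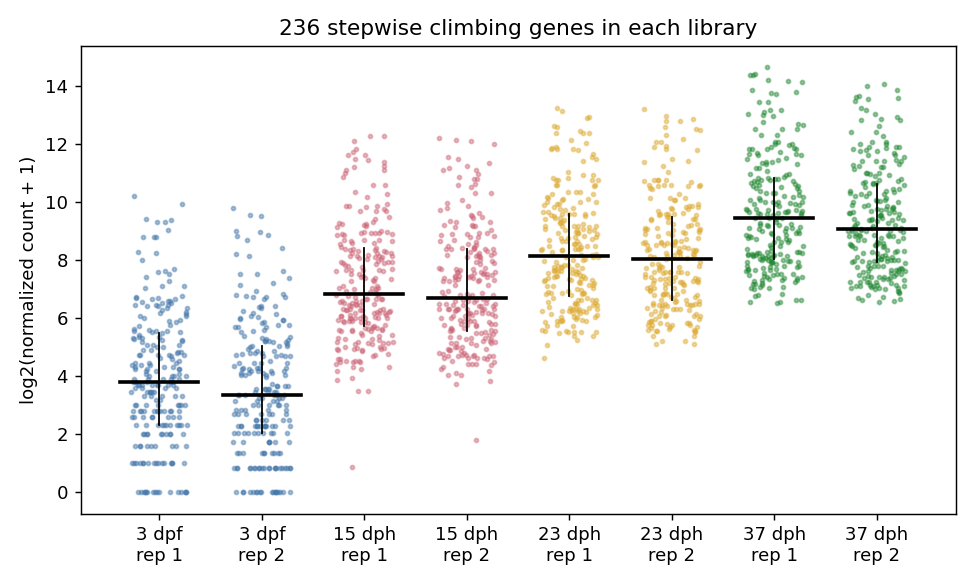
The log2 of the normalized count plus 1 (vertical axis) is plotted for the 236 climbing genes in each of the 8 libraries (horizontal axis), with 1 point per gene, a thick bar at the median and a thin line from the lower to the upper quartile. In normalized counts the medians were 12.97 and 9.35 for the embryos, 112 and 103 before metamorphosis, 282 and 266 during climax, and 697 and 538 for the juveniles.

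ENSSMAG00000013250 was the member with the most counts at 37 dph. Its normalized counts were 43.9 and 33.5 at 3 dpf, 3186 and 3026 at 15 dph, 5370 and 4681 at 23 dph, and 25865 and 13014 at 37 dph. No stage overlapped the next. In normalized counts, the libraries of 37 dph lay further from each other than the lower of them lay from 23 dph. As ratios this was not so. The lower library of 37 dph was 2.42 times the higher library of 23 dph, and replicate 2 minus replicate 1 at 37 dph was -0.99 in log2 units. The stage means were 38.7 ± 7.36 (SD, n = 2), 3106 ± 113 (SD, n = 2), 5026 ± 487 (SD, n = 2) and 19439 ± 9087 (SD, n = 2). The log2 fold change fitted by edgeR was 6.36 from 3 dpf to 15 dph (standard error 0.37), or 6.16 without replicate 2 of 3 dpf. From 15 to 23 dph it was 0.69 (standard error 0.28), and from 23 to 37 dph it was 1.93 (standard error 0.28). The step from 15 to 23 dph was not called in this gene, with an edgeR adjusted p of 0.228. Its middle step, 1.62 times, its last step, 3.87 times, and its mean at 37 dph were each close to a limit of the rule.

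ENSSMAG00000004187 had the largest ratio of juvenile to embryo, 737 times, among the 125 members with a mean of at least 10 at 3 dpf. Its normalized counts were 19.96 and 10.1 at 3 dpf, 2903 and 2222 at 15 dph, 5387 and 4302 at 23 dph, and 14341 and 7831 at 37 dph. Again no stage overlapped the next, and replicate 1 was the higher library at each stage. The stage means were 15.0 ± 6.95 (SD, n = 2), 2562 ± 481 (SD, n = 2), 4844 ± 767 (SD, n = 2) and 11086 ± 4603 (SD, n = 2). The log2 fold change was 7.47 from 3 dpf to 15 dph (standard error 0.42), or 7.02 without replicate 2 of 3 dpf. It was 0.91 from 15 to 23 dph (standard error 0.29) and 1.18 from 23 to 37 dph (standard error 0.29). The step from 15 to 23 dph was not called in this gene either, with an edgeR adjusted p of 0.141.

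The 13 members with a mean of at least 10000 at 37 dph started from unlike levels in the embryo, where 5 of them had a mean under 40 and the other 8 a mean of 300 or more. Their range at 37 dph, from 10614 to 19439, was set by this choice and by the limit of 20000. The member ranked 2 had 678 and 284 normalized counts at 3 dpf, 4951 and 4749 at 15 dph, 9779 and 9610 at 23 dph, and 21603 and 14824 at 37 dph. The member ranked 3 had 9.98 and 3.90 at 3 dpf, 2685 and 2425 at 15 dph, 5380 and 7436 at 23 dph, and 18972 and 17230 at 37 dph. These 2 members had 18213 and 18101 normalized counts on average in the juvenile, but the first step was 10.1 times for rank 2 and 368 times for rank 3. The member ranked 9 was the most abundant of all in the embryo, with 1196 and 889 normalized counts at 3 dpf, and its first step was 2.79 times, the smallest of the 13. Their second steps ran only from 1.62 to 2.96 times.

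**Figure D2:**
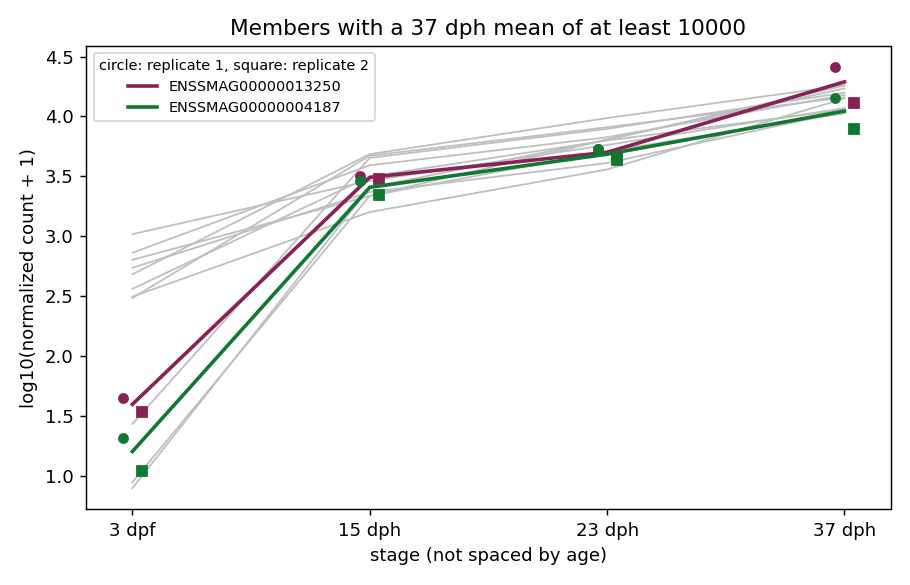
Lines show the stage means of the 13 members with a 37 dph mean of at least 10000, as log10 of the normalized count plus 1 (vertical axis) at each stage (horizontal axis, not spaced by age). The 2 genes with identifiers are in colour with circles for replicate 1 and squares for replicate 2, and the lines start in 2 bands at 3 dpf, 5 members under 40 and 8 at 300 or more.

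With embryo levels raised to a minimum of 3 counts per library, the limit that a count of 0 allows, the first step had a median of 7.76 times, with quartiles of 3.53 and 20.5 times. It was the largest of the 3 steps in 217 members, was 8 times or more in 116 and 100 times or more in 15. The largest, 751 times with this minimum, belonged to the member ranked 14, which had 2.99 and 0.78 normalized counts at 3 dpf and 2228 and 1774 at 15 dph. A group of 40 members had at most 3 counts in both embryo libraries, 9 of them 0 in both. For the 40 the minimum sets a fold below the observed ratio. It is not a strict lower bound where a count was above 0, as such a count allows more than 3. For the member ranked 221, at or below 3 counts in both embryo and both 15 dph libraries, no first step could be measured. At the other end, 25 members already had a mean of 100 or more in the embryo. With replicate 2 of 3 dpf left out, the other libraries scaled as before and the same 236 genes kept, the first step had a median of 6.86 times, with quartiles of 3.37 and 18.02 times. It was then the largest step in 206 members, 8 times or more in 103 and 100 times or more in 13, and 51 members had at most 3 counts in the embryo library that remained.

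Grouped after the values were seen, the members that were barely counted in the embryo had larger median steps later, which the rule in part built in. The 40 with at most 3 counts in both embryo libraries had medians of 2.30 times at the second step and 2.69 times at the third. The 82 with more counts and a first step of 8 or more had medians of 1.87 and 2.23 times, and the 114 with more counts and a first step under 8 had medians of 1.97 and 2.27 times. The first group was also the least abundant in the juvenile, with a median of 294 normalized counts at 37 dph against 1130 and 509. As all 3 steps were part of the choice, the differences between these groups were not tested.

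From 15 to 23 dph, the entry into climax, the members rose by a median of 1.95 times, and from 23 to 37 dph by a median of 2.33 times. The interval from 15 to 23 dph was 8 days and the one from 23 to 37 dph was 14 days. The median rate was 0.12 log2 units per day in the first of these intervals and 0.087 in the second, and 201 of 236 members rose faster per day into climax than after it. The rule leans the same way, since its smallest steps allow rates down to 0.085 per day before climax and 0.048 after it, and its limit of 4 caps the later rate at 0.14. In total size, the third step was larger than the second in 145 members and smaller in 91.

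**Figure D3:**
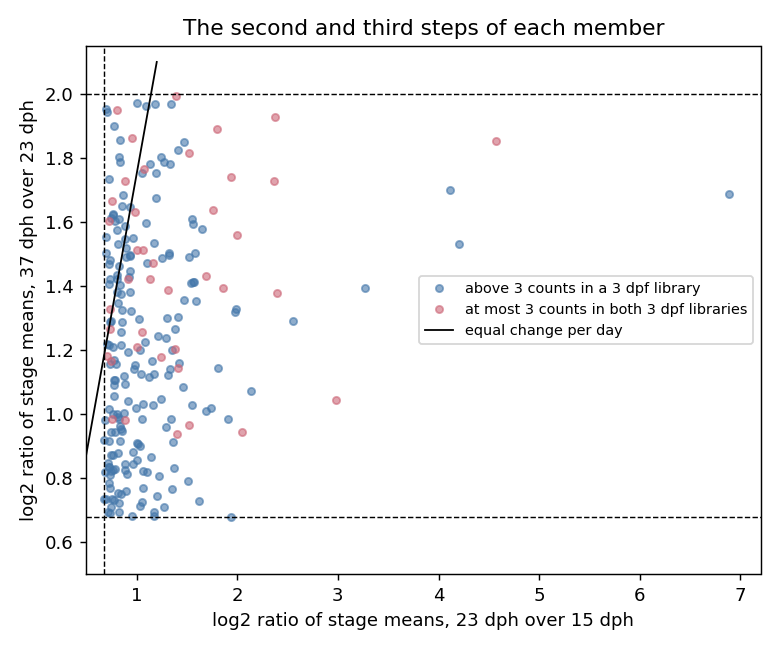
Each point is a climbing gene, placed by the log2 ratio of stage means from 15 to 23 dph (horizontal axis) and from 23 to 37 dph (vertical axis), with members at no more than 3 counts in both embryo libraries in red and the others in blue. Dashed lines mark the limits of the rule and the solid line an equal change per day, to the right of which lie 201 of the 236 genes.

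For 12 members the rise into climax was 4 times or more. Their means ran from 1.66 to 151 normalized counts at 15 dph and from 39.6 to 2135 at 23 dph. The steepest, ranked 17, had 4.99 and 0.78 normalized counts at 3 dpf, 17.1 and 18.95 at 15 dph, 2737 and 1533 at 23 dph, and 8212 and 5544 at 37 dph. It rose 119 times into climax and 3.21 times after it. The member ranked 22 had 53.9 and 25.7 at 3 dpf, 86.2 and 100.5 at 15 dph, 1730 and 1503 at 23 dph, and 6696 and 3812 at 37 dph, a second step of 17.3 times. The member ranked 25 had 3.99 and 1.56 at 3 dpf, 102 and 79.9 at 15 dph, 1814 and 1532 at 23 dph, and 5881 and 3798 at 37 dph, a second step of 18.4 times. In each of these 3 genes the lower library at climax lay far above the higher library at 15 dph. Replicate 1 was the higher library of 23 dph in all 12, against 61.4% of the members and 49.1% of the genes tested. A high library at 23 dph helps a gene into this group, so nothing is read from that count. The third steps of the 12 ran from 1.92 to 3.81 times.

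In 231 of the 236 members both libraries of each stage lay above both libraries of the stage before at all 3 steps, against 7.89% of the 18987 genes tested. By step this held for all 236 members from 3 dpf to 15 dph (40.5% of genes tested), for 234 from 15 to 23 dph (33.2%) and for 232 from 23 to 37 dph (34.4%). The rule asked for these steps in the means, so the counts describe how far the libraries fell in with their means and no more. The lower library of the later stage was a median of 5.92 times the higher library of the earlier stage at the first step, with a minimum of 3 counts set for the embryo. At the second step this gap was 1.63 times and at the third 1.77 times. The gap, unlike the ratio of means, shrinks as the replicates of a stage move apart.

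In the 5 members whose libraries overlapped, the means hid wide replicate pairs. The member ranked 7 had 9074 and 7189 normalized counts at 23 dph and 21359 and 7521 at 37 dph, so replicate 2 of the juvenile fell between the libraries of climax. The same held for the member ranked 69, with 608 and 491 at 23 dph and 2321 and 588 at 37 dph, and for the member ranked 73, with 695 and 483 and then 1993 and 676. The member ranked 158 had 65.7 and 37.9 at 15 dph, 335 and 61.4 at 23 dph and 483 and 152 at 37 dph, and overlapped at both later steps. The member ranked 198 overlapped at the second step, with 77.6 and 55.2 at 15 dph and 69.5 and 148 at 23 dph. In the members ranked 7, 69 and 73 the rise after climax was thus seen mainly in replicate 1 of 37 dph.

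**Figure D4:**
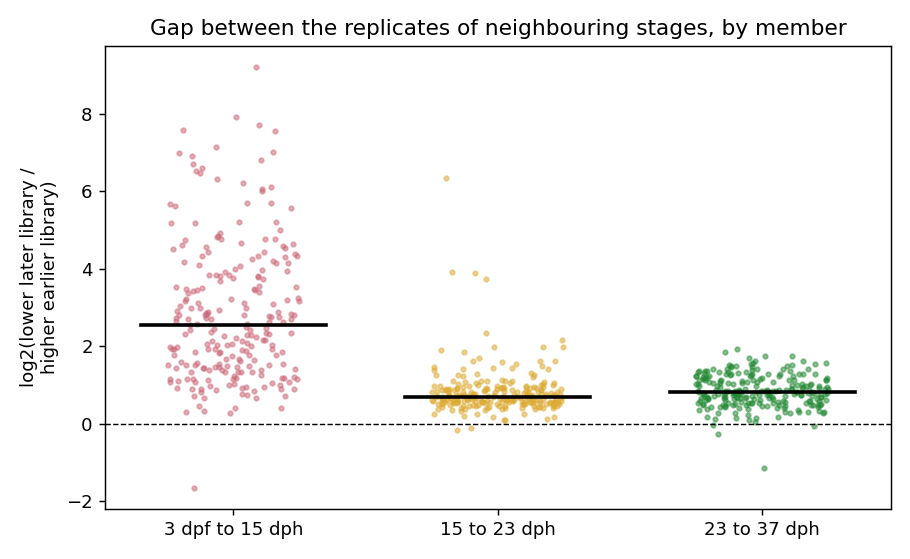
For each climbing gene the log2 ratio of the lower library of the later stage to the higher library of the earlier stage (vertical axis) is plotted at the 3 steps (horizontal axis), with levels in the earlier stage held at no less than 3 counts and a bar at the median. Points above the dashed line at 0 are genes whose libraries did not overlap, and the medians were 5.92, 1.63 and 1.77 times. At the first step 1 gene lies below the line only through the minimum of 3 counts.

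With edgeR fitted to all 8 libraries, calling a gene higher took a Benjamini-Hochberg adjusted p under 0.05 together with a log2 fold change of 1 or more. The test had called 24.4% of the 18987 genes tested higher at 15 dph than at 3 dpf, 1.48% higher at 23 dph than at 15 dph and 7.67% higher at 37 dph than at 23 dph. Of the members, all tested, 234 were called at the first step, 60 at the second and 156 at the third, shares fixed in part by the rule. The median log2 fold change of the members was 3.10, 0.95 and 1.21 at the 3 steps, with median standard errors of 0.36, 0.27 and 0.26, and that of all genes tested was 0.00, 0.00 and -0.01. The 2 members missed at the first step were those ranked 221 and 236, with at most 13.7 normalized counts in any library of 3 dpf or 15 dph.

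The second step had the fewest calls among the members, as it had over all genes tested. Of those genes 1.48% were called at this step, against 24.4% at the first and 7.67% at the third. The rule also admitted second steps below the log2 fold change of 1 that a call needs. Of 109 members past a log2 fold change of 1 from 15 to 23 dph, 49 missed the adjusted p. Neither count has a share over all genes tested beside it, so nothing about the members is read from them. The smallest ratio of means among members called was 2.02 times and the largest among those not called was 3.83 times, in the member ranked 158 described above. Calls were made for 31 of the 150 members with a juvenile mean under 1000 and for 29 of the 86 at 1000 or more. No share over all genes tested is given by level, so nothing about the members is read from this difference. Leaving out a library of 15 dph took the count of 60 to 16 (replicate 1) or 9 (replicate 2), and leaving out a library of 23 dph took it to 17 (replicate 1) or 36 (replicate 2), where the remaining library of the stage was assumed to vary like the others. At the third step the count went from 156 to 95 without replicate 2 of 23 dph, and at the first from 234 to 216 without replicate 2 of 3 dpf. All 3 steps were called in 46 members, against 0.485% of the genes tested, 2 steps in 122 members and 1 step in 68. The rule set these counts in part. No share over all genes tested is given for the members called at 2 steps or at 1. None is given for the fits with a library left out.

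The rule used the mean of the 2 libraries of a stage and not the difference between them. As 1 high library can raise a mean past a limit, the difference is not independent of the choice. The difference is set here beside all genes tested and beside genes with a juvenile mean of at least 100. No comparison was made with other genes that rise with stage, so a trait particular to the members cannot be read from it. Replicate 1 was the higher library for 169 of 236 members in the embryo, 164 before metamorphosis, 145 during climax and 164 in the juvenile, or 71.6%, 69.5%, 61.4% and 69.5% of them. Over the 18987 genes tested the shares were 50.6%, 52.9%, 49.1% and 51.5%, and over the 13969 genes with a mean of at least 100 at 37 dph they were 53.3%, 52.8%, 50.3% and 55.0%. As replicate numbers share no stated origin, counts over all 4 stages link no libraries and follow in part from the shares at each stage. Replicate 1 was the higher at all 4 stages in 57 members, 24.2% of them, against 7.22% of the genes tested. Replicate 2 was in 2 members, 0.847%, against 5.65%. The 2 libraries of a stage allow no test of this, and genes of the same animal are not independent.

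On the log2(normalized count + 1) scale, replicate 2 lay below replicate 1 by a median over the members of 0.37 in the embryo, 0.16 before metamorphosis, 0.13 during climax and 0.29 in the juvenile. Relative to the median of the genes tested, the members' median difference was -0.36, -0.15, -0.14 and -0.27. With libraries scaled by total counts it was -0.35, -0.15, -0.14 and -0.27. A change of scaling shifts the genes nearly alike and cancels against that median, so this likeness was fixed in advance. By total counts alone, without that reference, 121 of the 236 members were higher in replicate 1 at 37 dph. At 37 dph 17 members differed over 2 times between the libraries, 14 with replicate 1 the higher, and at 3 dpf 52 did, 45 with replicate 1 the higher. These were 7.2% of the members at 37 dph, against 5.5% of the genes tested, and 22% at 3 dpf, against 6.7%. The median member had a mean of 11.5 normalized counts at 3 dpf, and the part of counting error in the gaps there was not tested. Among the 13 most abundant members replicate 1 was the higher at 37 dph in 10. The gap at 3 dpf is between the library whose label and table name disagree and the other embryo.

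**Figure D5:**
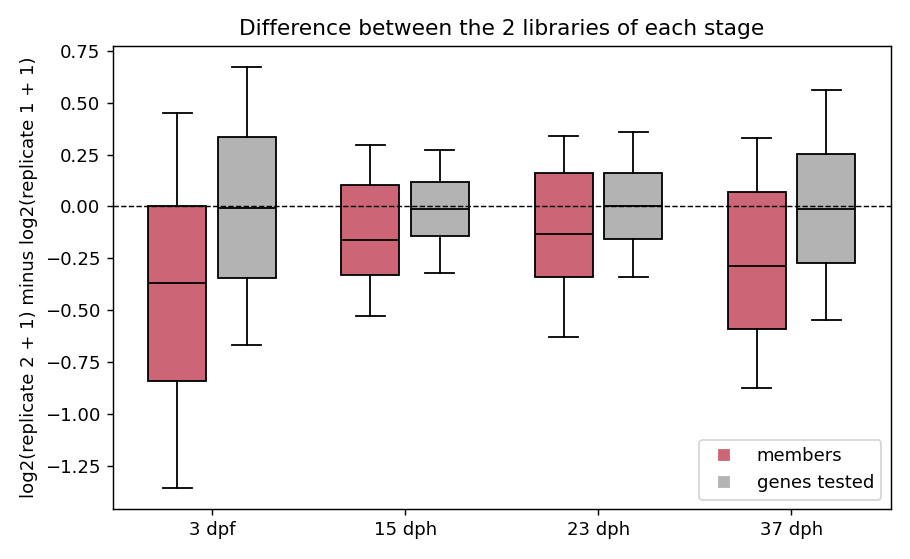
Boxes show the difference between the libraries of each stage as log2 of the normalized count plus 1 in replicate 2 minus that in replicate 1 (vertical axis), for the 236 climbing genes in red and the 18987 genes tested in grey, by stage (horizontal axis). Each box spans the quartiles with a line at the median and whiskers from the 10th to the 90th percentile, and the red medians lie at -0.37, -0.16, -0.13 and -0.29.

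To read the climb in libraries that had not chosen the genes, the rule was applied to replicate 1 of each stage alone and the genes found were followed in replicate 2, and the reverse. Replicate 1 gave 227 genes, and 206 of them were higher at every step in the replicate 2 libraries, as were 15.9% of all genes tested. Replicate 2 gave 261 genes, and 246 of them were higher at every step in the replicate 1 libraries, as were 14.3% of all genes tested. The genes of replicate 1 had medians of 6.84, 1.99 and 2.38 times at the 3 steps where they were chosen and 8.46, 1.87 and 2.27 times where they were only read. For the genes of replicate 2 the medians were 9.25, 1.98 and 2.43 times where chosen and 7.55, 1.86 and 2.60 times where read. The direction of the climb thus carried over in most of these genes, but 114 met the whole rule in both sets of libraries. Members of the main set made up 160 of the 227 genes and 162 of the 261. The split therefore does not test the main set as a whole.

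Many members sat close to the limits that defined them. Of the 236, 99 lay within 10% of a limit on a step or on the juvenile mean. At the second step the nearest gene inside had 1.60048 times and the nearest outside 1.59951 times, and 547 genes failed by this step alone. The nearest genes at the first step had 2.00009 and 1.99928 times, with 141 failing by it alone. At the lower limit of the third step they had 1.602 and 1.595 times, with 214 failing by it alone. The upper limit of 4 alone kept out 84 genes, with medians of 5.70 times at the third step and 2.58 times at the second. A mean of 20000 or more alone kept out 18 genes, which had a median of 89420 normalized counts at 37 dph and a median second step of 1.97 times.

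The set also turned on how libraries were scaled. With TMM in place of the median of ratios 232 genes met the rule, 225 of them members, and with the upper quartile 212 did, 197 of them members. Scaled by total counts on genes, 113 genes met it, 89 of them members, since that scaling shifted the genes tested as a whole, to a median log2 fold change of -0.31 from 15 to 23 dph and to -0.23 from 23 to 37 dph. All 236 members were still higher at each later stage under each of these scalings. The smallest steps the rule allowed were larger than the shifts any of these scalings made, so the choice had fixed this in advance. The members' median log2 fold change under total counts was 0.64 and 0.98 at these 2 steps. The 20 most abundant genes of a library took from 10.1% to 24.9% of its gene counts, the lowest share at 3 dpf and the highest at 37 dph, and the part of this in the shift was not tested. With each library left out in turn 91 of the 236 genes met the rule in all 8 cases.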

How the data were processed

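The authors extracted RNA from each fish, prepared stranded poly(A) libraries, sequenced pairs of reads, removed adapters with Trimmomatic, mapped with STAR 2.7.9a to ASM1334776v1 and ran HTSeq-count 2.0.2. What they deposited is raw counts, unnormalized and unpooled. The strand setting and annotation release are not given in the sources used here, so overlapping, antisense and near-identical genes may share reads. Per table, 5 summary lines name no gene and were left out; reads outside genes made up 15.3% to 18.9% of aligned entries, ambiguous reads 1.63% to 2.57% and multiply aligned reads 2.52% to 7.00%.

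Counts were divided by median-of-ratios size factors for the rule. Tests used edgeR 4.0.16 (filterByExpr, TMM, quasi-likelihood, 4 residual degrees of freedom) in R 4.3.3, with DESeq2 1.42.0 as an alternative, and were tested on simulated data. A count of 0 allows up to 3 counts; this floor and the p-values cover counting error and the spread between these libraries. The members and lists were chosen with earlier results of these data known. The genes given by identifier were the member with the highest 37 dph mean and the one with the largest ratio of 37 dph to 3 dpf among members with a 3 dpf mean of at least 10. The gene table (ASM2237912v1, 26628 genes) matched 0 identifiers, so planned gene lists and cell type markers were not run and no sequence is shown. Alternatives covered scaling, the limits of the rule, the filter, the test, the replicate block and each library left out.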

Additional observations from a re-analysis of the deposited data

How the results depend on the processing

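Of 148 values recomputed under alternatives, 135 were classed as the same. For fold changes this meant the same direction and side of the limit. For counts it meant a move of no more than 1.5 times, such as 236 climbing genes to 338 with no minimum at 37 dph. Of the rest, 9 counts moved by more than 1.5 times and 4 values of ENSSMAG00000004187 from 23 to 37 dph no longer met the limits of a call. The number reversed was 0. The number of climbing genes, 236, was 113 with total counts and 85 with a smallest step of 2, which admits fewer genes by construction, and ran from 222 to 271 with each library left out. Members called from 15 to 23 dph, 60, were 92 with the DESeq2 Wald test, 27 with total counts, a scaling chosen for the tests after seeing the data, and 9 to 81 with each library left out. Members called from 23 to 37 dph, 156, ran from 95 to 162, and those called from 3 dpf to 15 dph, 234, from 216 to 234. The median first step, 7.76 times, was 6.86 without replicate 2 of 3 dpf, an alternative also chosen after seeing the data. The cause was not tested beyond the smaller number of libraries. The share of all genes tested that was called is given for the main fit only. Under the alternatives a change in the members' calls therefore cannot be told apart from a change in calls of all genes. With the replicate number as a block the members' calls were 234, 80 and 154. The numbers share no stated origin, and the replicate differences of the genes tested correlated between stages at -0.13 to 0.22 over 6 pairs, so they were not taken to pair the libraries. No outlying library could be tested with 2 per stage. At 3 dpf, 40 members were at or under 3 counts, where the size of the first step rests on the minimum of 3 counts.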
